A study of Mus musculus with 8 samples.

Results

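The genes of the MHC class II presentation pathway described here were 7 rows of the gene count tables, chosen by symbol: Ciita, H2-Aa, H2-Ab1, H2-Eb1, Cd74, H2-DMa and H2-DMb1. They were 7 of 53735 genes counted and 7 of the 14418 that passed the filter on low counts. The data were 8 bulk RNA-seq libraries made from bone marrow derived macrophages (BMDMs), cells grown from marrow for 7 days in culture. The 4 WT libraries (numbers 1 to 4) came from Mkl1+/+, Apoe-/- mice and the 4 KO libraries (numbers 5 to 8) from Mkl1-/-, Apoe-/- mice, so that both genotypes lacked Apoe and the deletion of Mkl1 was global rather than limited to macrophages. The study's methods give its mice infused with angiotensin II as male, 6 months old and of C57BL/6J background. All donors of marrow received angiotensin II (Ang II) from an osmotic minipump at 1.44 mg/kg/day for 7 days before the marrow was taken. No library came from a mouse without Ang II. The libraries formed 2 experiments: WT 1, WT 2, KO 5 and KO 6 belonged to experiment 1, and WT 3, WT 4, KO 7 and KO 8 to experiment 2.

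MHC class II molecules present peptides from endocytosed protein to CD4+ T cells. An alpha and a beta chain assemble in the endoplasmic reticulum with the invariant chain (Cd74), which blocks the groove and guides the complex to endosomes, where proteases digest it and H2-DM exchanges the remaining fragment for peptide. The main driver of class II transcription is CIITA, a coactivator that binds no DNA itself and joins a complex of RFX, CREB and NF-Y factors assembled on the X and Y boxes of class II promoters. Macrophages hold little CIITA at rest and make it in response to interferon gamma, while dendritic cells and B cells make it constitutively. Mice of C57BL/6 background carry a defective H2-Ea gene, so that they transcribe H2-Eb1 but form no I-E molecule at the surface.

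Mkl1, the targeted gene, was lower in KO within each experiment, with 25.7 and 27.1 CPM (counts of a gene scaled to the library total) in WT 1 and WT 2 against 19.5 and 20.9 CPM in KO 5 and KO 6, and 26.8 and 29.6 CPM in WT 3 and WT 4 against 14.6 and 10.4 CPM in KO 7 and KO 8. Reads on the gene were reduced, not absent. Libraries held between 33977799 and 41584540 counts. The 8 macrophage markers summed to between 15030 and 35760 CPM in every library, and the markers Adgre1, Csf1r and Cd68 were abundant throughout. KO 5 and KO 6 stood apart by fibroblast transcripts, with a summed level of 178 and 234.5 CPM over 8 markers against 2.18 to 12.1 CPM in the other 6 libraries.

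Each of the 7 class II genes was high in 4 libraries and low in the other 4, and genotype alone did not separate these. In experiment 1 the KO libraries were high and the WT libraries low. In experiment 2 the order was turned round. For all 7 genes the lowest of KO 5, KO 6, WT 3 and WT 4 lay above the highest of WT 1, WT 2, KO 7 and KO 8, a split that 12.1% of all genes tested also showed. Summed over the 7 genes, the level was 38.4 and 40.8 CPM in WT 1 and WT 2, 361 and 263 CPM in KO 5 and KO 6, 831 and 216 CPM in WT 3 and WT 4, and 43.3 and 30.8 CPM in KO 7 and KO 8.

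**Figure D1:**
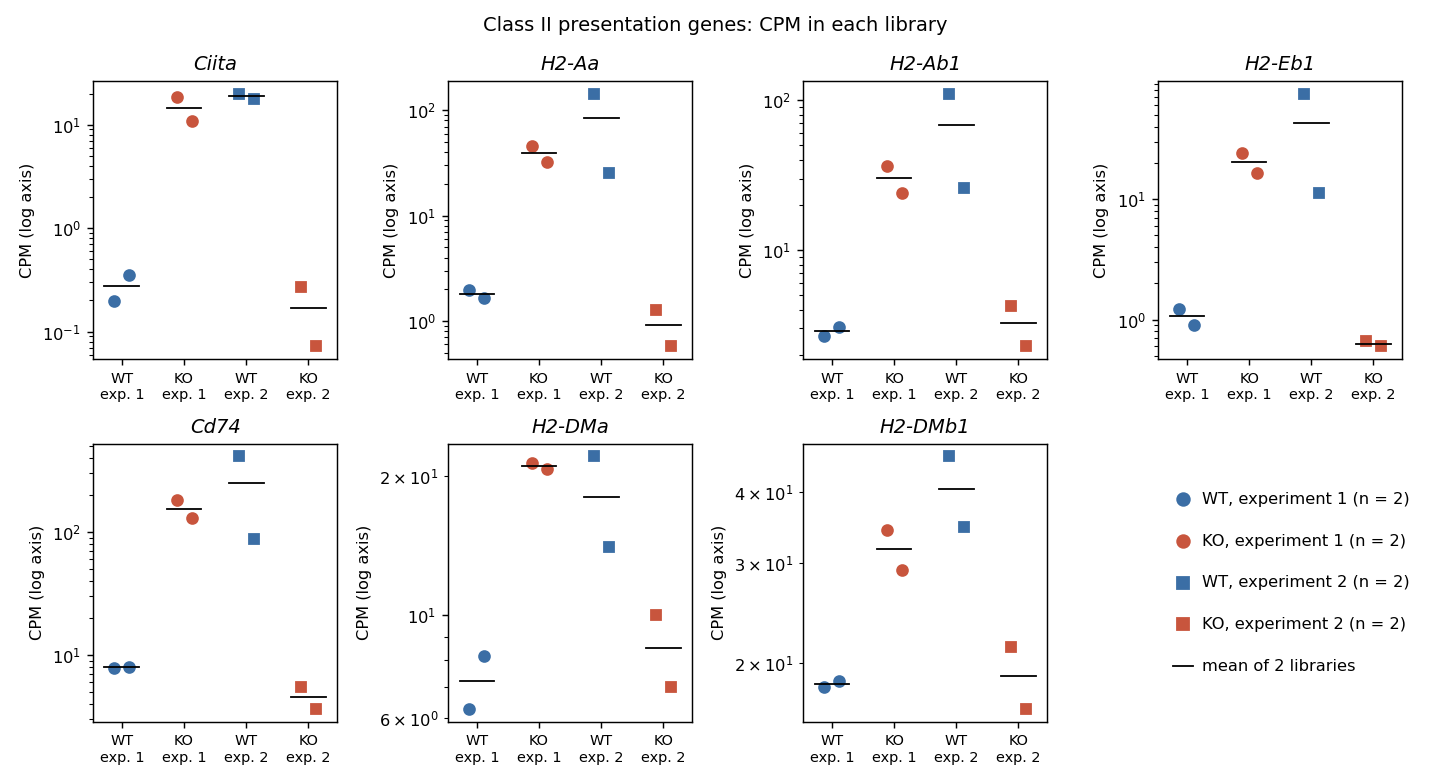
CPM of the 7 class II presentation genes in each library on log axes, with a panel per gene, a point per library and a line at the mean of the 2 libraries of a group. In every panel the KO libraries of experiment 1 and the WT libraries of experiment 2 lie above the other 4 libraries. The range was 277-fold for Ciita, whose lowest point, KO 8, rests on 3 reads, and 2.78-fold for H2-DMb1.

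Ciita, the gene of this coactivator, was close to absent in the low libraries. It had 0.197 and 0.352 CPM in WT 1 and WT 2 and 18.5 and 10.8 CPM in KO 5 and KO 6. In experiment 2 it had 19.9 and 17.5 CPM in WT 3 and WT 4 and 0.268 and 0.072 CPM in KO 7 and KO 8. Behind these levels stood 8 and 12 reads in WT 1 and WT 2 and 11 and 3 reads in KO 7 and KO 8, against between 431 and 727 reads in the 4 high libraries. The difference between genotypes was therefore of similar size and opposite direction. The log2 fold change of KO against WT was 5.74 (SE 0.44, adjusted p = 0.00027) in experiment 1 and -6.76 (SE 0.43, adjusted p = 0.00448) in experiment 2 by the quasi-likelihood test of edgeR, adjusted by Benjamini-Hochberg over all genes tested. The fold in the second case rests on the 14 reads of KO 7 and KO 8 together, and KO 8 alone is at the floor of 3 counts. Ciita is also the gene of the 7 whose calls in experiment 2 stood in all 11 alternatives that tested it, with adjusted p of at most 0.0324.

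H2-Aa, H2-Ab1 and H2-Eb1 encode the alpha chain of I-A, the beta chain of I-A and the beta chain of I-E. H2-Aa had 1.97 and 1.67 CPM in WT 1 and WT 2 and 45.9 and 32.4 CPM in KO 5 and KO 6, and in experiment 2 it had 144 and 25.2 CPM in WT 3 and WT 4 and 1.27 and 0.576 CPM in KO 7 and KO 8. The groups did not overlap in either experiment, and WT 3 was far above every other library. H2-Aa was 21.2-fold higher in KO in experiment 1 (log2 fold change 4.40, SE 0.23, adjusted p = 4.62e-05) and 91.4-fold lower in KO in experiment 2 (log2 fold change -6.51, SE 1.09, adjusted p = 0.0258).

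H2-Ab1, its partner, was high in the same 4 libraries and low in the same 4, with a higher floor. Its level was 2.66 and 3.08 CPM in WT 1 and WT 2, 36.2 and 23.9 CPM in KO 5 and KO 6, 111 and 26.0 CPM in WT 3 and WT 4, and 4.24 and 2.28 CPM in KO 7 and KO 8. KO was higher by 3.38 on the log2 scale in experiment 1 (SE 0.25, adjusted p = 0.000233), and the log2 fold change was -4.39 in experiment 2 (SE 0.82, adjusted p = 0.0321). H2-Eb1 had 1.23 and 0.909 CPM in WT 1 and WT 2, 24.0 and 16.6 CPM in KO 5 and KO 6, 75.2 and 11.3 CPM in WT 3 and WT 4, and 0.659 and 0.600 CPM in KO 7 and KO 8. Its groups did not overlap either, with log2 fold changes of 4.22 (SE 0.26, adjusted p = 4.37e-05) and -6.10 (SE 1.12, adjusted p = 0.0308). A gene antisense to H2-Eb1, Gm20513, overlaps it, and the strand setting of the counting is not given in the sources used here.

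Cd74, the invariant chain, was the most abundant of the 7 in the high libraries. It had 7.92 and 8.04 CPM in WT 1 and WT 2 and 181 and 129 CPM in KO 5 and KO 6, which is 19.3-fold higher (log2 fold change 4.27, SE 0.21, adjusted p = 0.000201). In experiment 2 it had 413 and 87.3 CPM in WT 3 and WT 4 and 5.49 and 3.64 CPM in KO 7 and KO 8, which is 54.8-fold lower in KO (log2 fold change -5.78, SE 0.90, adjusted p = 0.0228). WT 1 and WT 2 were nearly equal, whereas WT 3 was 4.73 times WT 4.

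H2-DMa and H2-DMb1 encode the chains of the H2-DM heterodimer, which catalyses peptide exchange in endosomes, and they moved far less. H2-DMa had 6.27 and 8.19 CPM in WT 1 and WT 2, 21.3 and 20.8 CPM in KO 5 and KO 6, 22.1 and 14.1 CPM in WT 3 and WT 4, and 10 and 7.00 CPM in KO 7 and KO 8. H2-DMb1 had 18.2 and 18.6 CPM in WT 1 and WT 2, 34.3 and 29.2 CPM in KO 5 and KO 6, 46.2 and 34.7 CPM in WT 3 and WT 4, and 21.4 and 16.6 CPM in KO 7 and KO 8. Neither gene approached 0 in the libraries where Ciita did. In experiment 1 the log2 fold changes were 1.54 for H2-DMa (SE 0.13, adjusted p = 4.6e-05) and 0.78 for H2-DMb1 (SE 0.09, adjusted p = 0.000233). In experiment 2 they were -1.09 for both, with an SE of 0.20 and an adjusted p of 0.0272 for H2-DMb1, and an SE of 0.29 and an adjusted p of 0.0653 for H2-DMa, which did not pass. H2-DMa overlaps Brd2 on the opposite strand, and Brd2 is transcribed in these cells.

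All 7 genes passed the test as higher in KO in experiment 1, where 27.0% of the genes tested were called higher and 28.1% lower. In experiment 2, 6 of the 7 passed as lower in KO, where 7.52% of all genes were called higher and 8.29% lower. The same shares apply to the counts of each gene list below. The median log2 fold change of the 7 was 4.22 in experiment 1 and -5.78 in experiment 2, beside 0.01 for all genes tested in both. Counted by libraries alone, both KO libraries lay above both WT libraries in experiment 1 for 7 of 7 genes (41.2% of all genes), and below both in experiment 2 for 7 of 7 (32.5% of all genes). In experiment 1 the calls of the 7 genes were stable over the alternative fits, the exception being H2-DMb1 when a change of at least 2-fold was required. In experiment 2 the number called lower fell to 1, Ciita, without KO 7 and likewise without KO 8, was 5 without WT 3 and 7 without WT 4, although the direction stayed in each. It was 3 with no filter beyond 1 count and 3 with limma-voom.

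**Figure D2:**
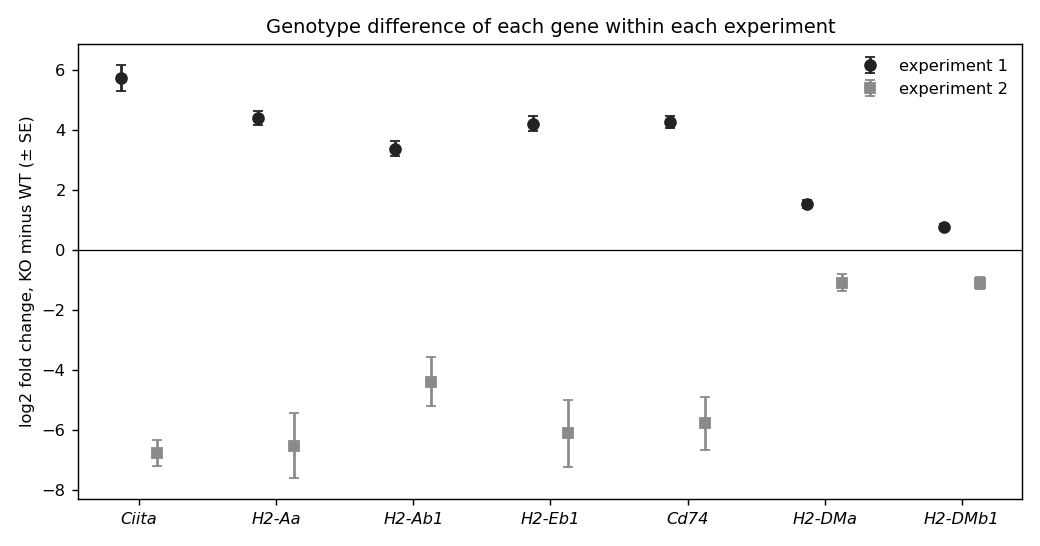
Log2 fold change of KO against WT for the 7 class II presentation genes in experiment 1 (circles) and experiment 2 (squares), with bars of 1 standard error from the edgeR fit. All values of experiment 1 lie above 0, from 0.78 to 5.74, and all values of experiment 2 below 0, from -1.09 to -6.76, with wider bars for H2-Aa, H2-Ab1, H2-Eb1 and Cd74 in experiment 2.

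The difference between the experiments was tested directly, as the product of experiment and genotype in a fit of all 8 libraries. It passed for 7 of 7 genes, each with a lower effect in experiment 2, where 20.6% of all genes tested did so. The difference in log2 fold change was -12.51 for Ciita (SE 0.66, adjusted p = 9.09e-05), -10.93 for H2-Aa, -10.33 for H2-Eb1, -10.06 for Cd74 and -7.78 for H2-Ab1, and it was -2.63 for H2-DMa and -1.88 for H2-DMb1. The adjusted p of the other 6 lay between 0.000547 and 0.00158. Without WT 3 the difference shrank to -9.16 for H2-Aa, -8.36 for H2-Eb1, -8.51 for Cd74 and -6.36 for H2-Ab1, and without WT 4 it grew to -11.70, -11.12, -10.78 and -8.47. For Ciita it was -13.67 without KO 7 and -11.86 without KO 8, and for H2-Aa -11.57 without KO 7. All 7 stayed past the threshold in every alternative that tested them, with adjusted p of at most 0.0181. A single effect of genotype over both experiments was called for 0 of the 7, against 7.12% of all genes, with log2 fold changes between -0.96 and 0.23 and adjusted p between 0.856 and 0.977 by edgeR. These values near 0 average opposite effects and were not stable, as the alternatives, left-out libraries among them, gave -4.66 to 2.68 for H2-Aa, -4.47 to 3.64 for Ciita and -4.13 to 2.66 for Cd74. No other tool or setting run called any of them in that comparison, with the lowest adjusted p at 0.461. What set the experiments apart other than their numbers is not in the labels, so a difference in culture, animals or sequencing between them cannot be told apart from the turn in direction.

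Within groups the libraries did not spread alike. KO 5 exceeded KO 6 by 1.03 to 1.72 times over the 7 genes. WT 3 exceeded WT 4 by 6.65 times for H2-Eb1, 5.70 times for H2-Aa, 4.73 times for Cd74 and 4.25 times for H2-Ab1, by 1.57 and 1.33 times for H2-DMa and H2-DMb1, and by 1.14 times for Ciita. These libraries held almost the same amount of Ciita transcript and very different amounts of the I-A, I-E and invariant chain transcripts. As ratios of raw counts, Cd74 stood at 20.7 reads per read of Ciita in WT 3 and 4.99 in WT 4, with 9.77 in KO 5 and 12 in KO 6. H2-Aa stood at 7.20 reads per read of Ciita in WT 3, 1.44 in WT 4, 2.48 in KO 5 and 3.00 in KO 6. Leaving out WT 3 made the log2 fold change of experiment 2 smaller, at -4.77 for H2-Aa (adjusted p = 0.0169), -4.16 for H2-Eb1 (adjusted p = 0.00475), -4.26 for Cd74 (adjusted p = 0.00603) and -2.998 for H2-Ab1 (adjusted p = 0.0328), by edgeR with the lone WT library assumed to vary like the others. For H2-DMb1 the call was lost, at -0.87 (adjusted p = 0.0769). For Ciita the value was -6.67 (adjusted p = 0.0108). Without WT 4 the values were larger, at -7.28 for H2-Aa, -6.89 for H2-Eb1, -6.50 for Cd74 and -5.08 for H2-Ab1. The Ciita value also moved with the KO library left out, and was -7.96 without KO 7 and -6.11 without KO 8, and H2-Aa had -7.18 without KO 7.

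**Figure D3:**
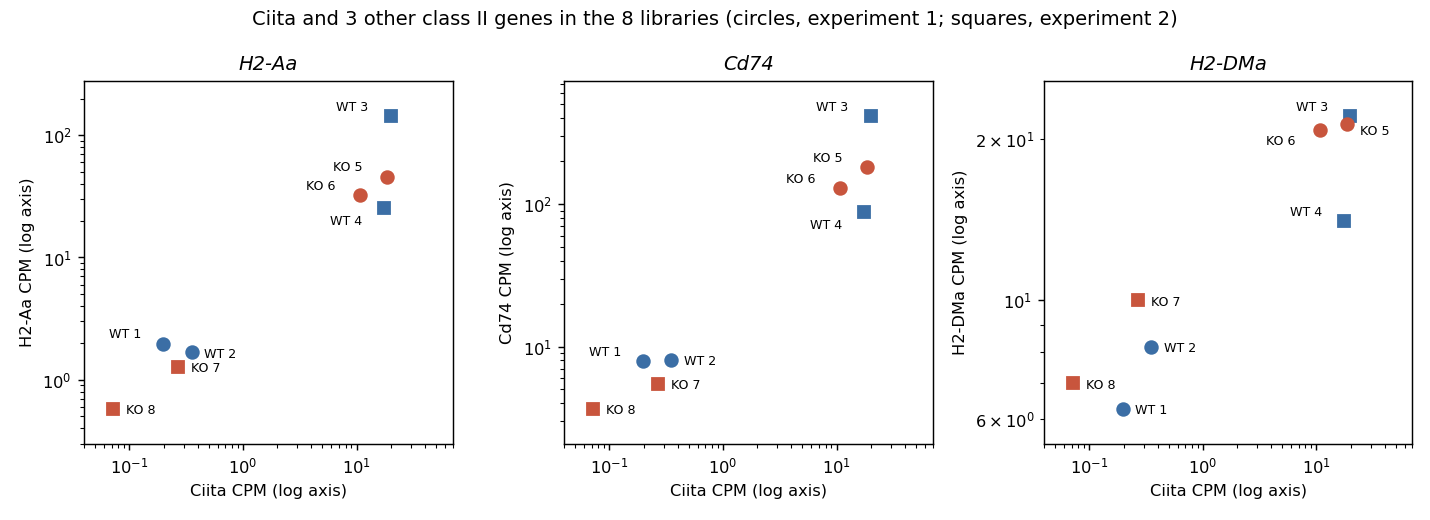
CPM of H2-Aa, Cd74 and H2-DMa (vertical, log axes) against CPM of Ciita (horizontal, log axis), with a labelled point per library, circles for experiment 1, squares for experiment 2, blue for WT and red for KO. The libraries form a low and a high cluster. Within the high cluster WT 3 and WT 4 have similar Ciita (19.9 and 17.5 CPM) and differ 5.70 times in H2-Aa.

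The 7 genes shared the split of the libraries and differed in amplitude, with the highest library at 277 times the lowest for Ciita, 249 times for H2-Aa, 125 times for H2-Eb1, 113 times for Cd74 and 48.5 times for H2-Ab1, against 3.52 times for H2-DMa and 2.78 times for H2-DMb1. The range of Ciita rests on the 3 reads of KO 8, at the floor, so its place ahead of H2-Aa is not sure. The ratio of the I-A chains also moved. H2-Aa stood at 0.741 and 0.543 reads per read of H2-Ab1 in WT 1 and WT 2 and at 0.299 and 0.253 in KO 7 and KO 8, and at 1.27, 1.35, 1.30 and 0.968 in KO 5, KO 6, WT 3 and WT 4. H2-Aa thus lost more than H2-Ab1 in the low libraries. Its ratio to Cd74 was steadier, between 0.158 and 0.347.

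The 7 genes lie on 3 chromosomes (GENCODE M21 annotation, build GRCm38). H2-DMa (chr17:34119541-34139101, plus strand), H2-DMb1 (chr17:34153072-34160230, plus strand), H2-Ab1 (chr17:34257689-34269419, plus strand), H2-Aa (chr17:34282744-34287823, minus strand) and H2-Eb1 (chr17:34305867-34316674, plus strand) belong to the class II region of the MHC. Ciita lies at chr16:10480059-10528418 on the plus strand, and Cd74 on chromosome 18. Levels of different genes are compared per kilobase of merged exons. On the scale of mean CPM per kilobase, the order in the WT libraries of experiment 1 was H2-DMb1 (10.9), Cd74 (4.75), H2-DMa (2.10), H2-Ab1 (1.12), H2-Eb1 (0.55), H2-Aa (0.479) and Ciita (0.0288). H2-Eb1 and H2-Aa did not differ beyond their SD of 0.116 and 0.0549 (n = 2).

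In the KO libraries of the same experiment the order on that scale was Cd74 (92.5), H2-DMb1 (18.9), H2-Ab1 (11.7), H2-Eb1 (10.4), H2-Aa (10.3), H2-DMa (6.11) and Ciita (1.54). The I-A and I-E chains, with SDs between 2.52 and 3.36 (n = 2), could not be ordered among themselves. In the WT libraries of experiment 2 Cd74 stood at 149 ± 137 CPM per kilobase (SD, n = 2), H2-Ab1 at 26.6 ± 23.3, H2-DMb1 at 24.1 ± 4.82, H2-Eb1 at 22.3 ± 23.2 and H2-Aa at 22.2 ± 22.0, and no neighbours in this order differed beyond the larger SD. In the KO libraries of experiment 2 H2-DMb1 led again at 11.3 ± 2.01, ahead of Cd74 at 2.72 ± 0.777, H2-DMa at 2.47 ± 0.615 and H2-Ab1 at 1.27 ± 0.542. Read library by library, Cd74 was the highest of the 7 per kilobase in KO 5, KO 6, WT 3 and WT 4 (52.0 CPM per kilobase in WT 4, against 20.6 for H2-DMb1), and H2-DMb1 was the highest in the other 4.

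The neighbourhood on the chromosome was looked at because 5 of the genes share it. From the start of H2-DMa to the end of H2-Eb1, a stretch of 197 kb, 12 of 18 annotated genes were tested, 7 of them none of the genes above. Of those 7, 5 were higher and 1 lower in KO in experiment 1 (27.0% and 28.1% of all genes). In experiment 2, 0 were higher and 3 lower (7.52% and 8.29% of all genes). Of the immunoproteasome and peptide transporter genes inside the region, Psmb9 and Tap2 passed in both experiments, Tap1 in experiment 1 and Psmb8 in neither. The calls of Psmb9 and Tap2 in experiment 2 were lost without KO 7 and likewise without KO 8. Psmb9 had log2 fold changes of 0.74 (adjusted p = 0.000316) and -1.496 (adjusted p = 0.0358), Tap2 of 0.31 (adjusted p = 0.0352) and -0.93 (adjusted p = 0.0391), and Psmb8 of -0.10 (adjusted p = 0.485) and -0.72 (adjusted p = 0.0714) by the edgeR test. Tap1 had 0.42 (adjusted p = 0.0356) and -1.35 (adjusted p = 0.0727) by the same test. These 4 genes are named for their position, after their values were seen.

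Because the genes moved together, their promoters were read for the X box, the site of RFX, and the Y box, the CCAAT site of NF-Y, in both directions. The RefSeq promoter table (GRCm38.p6, 250 bases before to 50 after each start) held H2-Aa, H2-Eb1, H2-DMb1 and 2 starts of H2-DMa. The X box core CCTAGNNAC was in 1 of these 5 promoters, that of H2-DMb1, and in 3.91% of all 32851 promoters. The letters CTNGNAACT, chosen after the promoters were read and overlapping that core, were in 3 of 5 and in 4.10% of all. CCAAT or its reverse was in 4 of 5 and in 37.4% of all. The X box letters began 84 bases before the start of H2-Aa, 94 before that of H2-Eb1 and 98 before that of H2-DMb1, always on the strand of the gene. The lines show the stretches 5′ to 3′ on the strand of the gene at chr17:34287857-34287917 (H2-Aa, minus strand), chr17:34305763-34305822 (H2-Eb1, plus strand) and chr17:34153083-34153112 (H2-DMb1, plus strand, inside the first exon in GENCODE). All 3 held a Y box, read as ATTGG on this strand, that began 27 (H2-Aa), 26 (H2-Eb1) and 27 (H2-DMb1) bases after the X box letters. Capitals mark the X box letters, those of the core included, and the Y box in the first 2 lines. The line of H2-DMb1 is cut short because the stretch lies in an exon, and it ends before its Y box, 61 bases before the start. The lines are shown because this layout was shared by genes of very different range, 249-fold for H2-Aa, 125-fold for H2-Eb1 and 2.78-fold for H2-DMb1.
H2-Aa: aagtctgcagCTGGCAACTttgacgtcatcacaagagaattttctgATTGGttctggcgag
H2-Eb1: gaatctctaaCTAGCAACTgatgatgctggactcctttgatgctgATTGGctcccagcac
H2-DMb1: atgaggtttaCCTAGTAACTgatgatgcta

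The matches are letters in a window and not measured binding. The H2-DMb1 promoter, which held the X box core, belonged to a gene that kept between 16.6 and 21.4 CPM in the 4 libraries where Ciita had at most 0.352 CPM.

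Of 5 other class II genes, 2 were abundant enough to test. H2-Ob, a chain of the H2-O inhibitor of H2-DM, was higher in KO in experiment 1 (log2 fold change 1.47, SE 0.44, adjusted p = 0.0235) and lower in experiment 2 (-2.95, SE 0.64, adjusted p = 0.0393). H2-DMb2, a second beta chain of H2-DM, was higher in experiment 1 (1.41, SE 0.38, adjusted p = 0.0131) and had -1.27 in experiment 2 (adjusted p = 0.138). It held between 0.0115 and 0.0276 reads per read of H2-DMb1, its near-identical neighbour, so that shared reads could make up its counts. Neither call of experiment 1 stood with DESeq2 (adjusted p = 0.0569 for H2-Ob and 0.0887 for H2-DMb2) or without KO 5 (0.0554 and 0.0589). That of H2-Ob was also lost without WT 2 or KO 6 in experiment 1 and without WT 3, KO 7 or KO 8 in experiment 2 (adjusted p up to 0.153), and that of H2-DMb2 without WT 1 (0.0814). H2-Oa had between 3 and 51 reads per library, H2-Eb2 had 17 reads in WT 3 and 0 in the other 7, and the H2-Ea pseudogene had 1 read in KO 7 and 0 elsewhere.

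Of 7 factors that hold CIITA to the promoters, all tested, 2 were higher and 1 lower in KO in experiment 1 (27.0% and 28.1% of all genes). In experiment 2, 0 were higher and 1 lower (7.52% and 8.29% of all genes). Counts this small do not set the list apart from all genes tested. Rfx5, the DNA-binding subunit of the RFX complex, took the direction of the class II genes, with 18.1 and 20.7 CPM in WT 1 and WT 2, 27.6 and 29.4 CPM in KO 5 and KO 6, 48.5 and 38.1 CPM in WT 3 and WT 4, and 19.5 and 17.4 CPM in KO 7 and KO 8. Its log2 fold changes were 0.55 (SE 0.09, adjusted p = 0.00132) and -1.23 (SE 0.16, adjusted p = 0.0146), the second not called without KO 7 (adjusted p = 0.0528) or KO 8 (0.0811). Rfxank, another RFX subunit, was higher in experiment 1 (0.68, adjusted p = 0.00128) and had -0.34 in experiment 2 (adjusted p = 0.195). Rfxap had 0.12 in each experiment (adjusted p = 0.374 and 0.623). Of the NF-Y subunits Nfyb was lower in KO in experiment 1 (-0.27, adjusted p = 0.0262) and did not pass in experiment 2 (-0.42, adjusted p = 0.0625), while Nfya and Nfyc lay between -0.19 and 0.18 and Creb1 had -0.04 and -0.20, and none of these passed. The call of Nfyb was lost with DESeq2 (adjusted p = 0.0698), with upper-quartile scaling (-0.17, adjusted p = 0.125) and without WT 1, WT 2 or KO 5 (0.0524 to 0.138).

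Of 9 genes for antigen processing and class II turnover, 4 were higher and 1 lower in KO in experiment 1 (27.0% and 28.1% of all genes). In experiment 2, 1 was higher and 2 were lower (7.52% and 8.29% of all genes). Without any 1 of the 4 libraries of experiment 2 the number higher there was 0, and the number lower was 1 without WT 3 or KO 7 and 0 without KO 8. Ctss, the protease that trims the invariant chain, had 2717 and 2612 CPM in WT 1 and WT 2 and 4440 and 4368 CPM in KO 5 and KO 6 (log2 fold change 0.71, adjusted p = 0.000108). In experiment 2 it had 4091, 3863, 3658 and 1811 CPM in WT 3, WT 4, KO 7 and KO 8 (-0.54, adjusted p = 0.336), so that KO 8 alone was low. Ctsb was higher in KO in experiment 1 (0.44, adjusted p = 0.0029) and had 0.31 in experiment 2 (adjusted p = 0.421). Ctsd had 0.21 (adjusted p = 0.0533) and was higher in experiment 2 (0.72, adjusted p = 0.0474). The lysosomal proteases, abundant in every library, did not share the near-absence of the class II chains in the low libraries.

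Interferon gamma is the classical inducer of Ciita in macrophages, and its own transcript, Ifng, had 1 read in WT 1 and 0 in the other libraries. Of 9 tested genes of its receptor pathway, 3 were higher and 2 lower in KO in experiment 1 (27.0% and 28.1% of all genes). In experiment 2, 1 was higher and 7 were lower (7.52% and 8.29% of all genes). The 7 became 4 without WT 3, 2 without KO 7 and 1 without KO 8. Ifngr1, the ligand-binding receptor chain, had 162 and 145 CPM in WT 1 and WT 2, 183 and 165 CPM in KO 5 and KO 6, 295 and 311 CPM in WT 3 and WT 4, and 162 and 140 CPM in KO 7 and KO 8. It was lower in KO in experiment 2 (-1.01, SE 0.13, adjusted p = 0.0147, not called without KO 8) and had 0.17 in experiment 1 (adjusted p = 0.1). Spi1, the myeloid factor PU.1, did not turn with the class II genes and was lower in KO in both experiments (-0.60, adjusted p = 7.69e-05, and -0.55, adjusted p = 0.0397), the second not called without any 1 library of experiment 2. Jak1, a kinase of the receptor, passed in neither experiment by edgeR (-0.06, adjusted p = 0.44, and 0.15, adjusted p = 0.451). Irf1, a factor that acts on Ciita, is named here after its values were seen. It had 43.5 and 47.6 CPM in WT 1 and WT 2, and 98.1 and 91.7 CPM in KO 5 and KO 6. In experiment 2 it had 404 and 436 CPM in WT 3 and WT 4, and 55.2 and 44.1 CPM in KO 7 and KO 8.

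Of 13 genes that interferon gamma induces, 10 were higher and 1 lower in KO in experiment 1, and 13 of 13 were lower in experiment 2, with medians of 1.31 and -4.20 on the log2 scale. The 13 called in experiment 2 became 5 without KO 7, 1 without KO 8 and 6 with no filter beyond 1 count. The direction was mostly that of the class II genes, but the levels were not alike in the 2 groups that held Ciita. Gbp2, a guanylate binding protein, had 23.5 and 20.9 CPM in WT 1 and WT 2, 55.0 and 56.2 CPM in KO 5 and KO 6, 597 and 328 CPM in WT 3 and WT 4, and 30.6 and 19.6 CPM in KO 7 and KO 8. Irgm1 had 82.1, 88.9, 205 and 202 CPM in experiment 1 in the same order and 569, 355, 132 and 100.5 CPM in experiment 2. Cxcl10, a chemokine, had 7.13, 3.81, 4.44 and 6.30 CPM in experiment 1, where the groups overlapped (adjusted p = 0.919, edgeR), and 1099, 397, 1.95 and 0.911 CPM in experiment 2 (log2 fold change -9.03, adjusted p = 0.00867, not called without KO 8). Ciita in KO 5, at 18.5 CPM, was within the range of WT 3 and WT 4, and in KO 6, at 10.8 CPM, it was below both, whereas Gbp2, Irgm1 and Cxcl10 were lower in KO 5 and KO 6 than in WT 3 and WT 4.

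**Figure D4:**
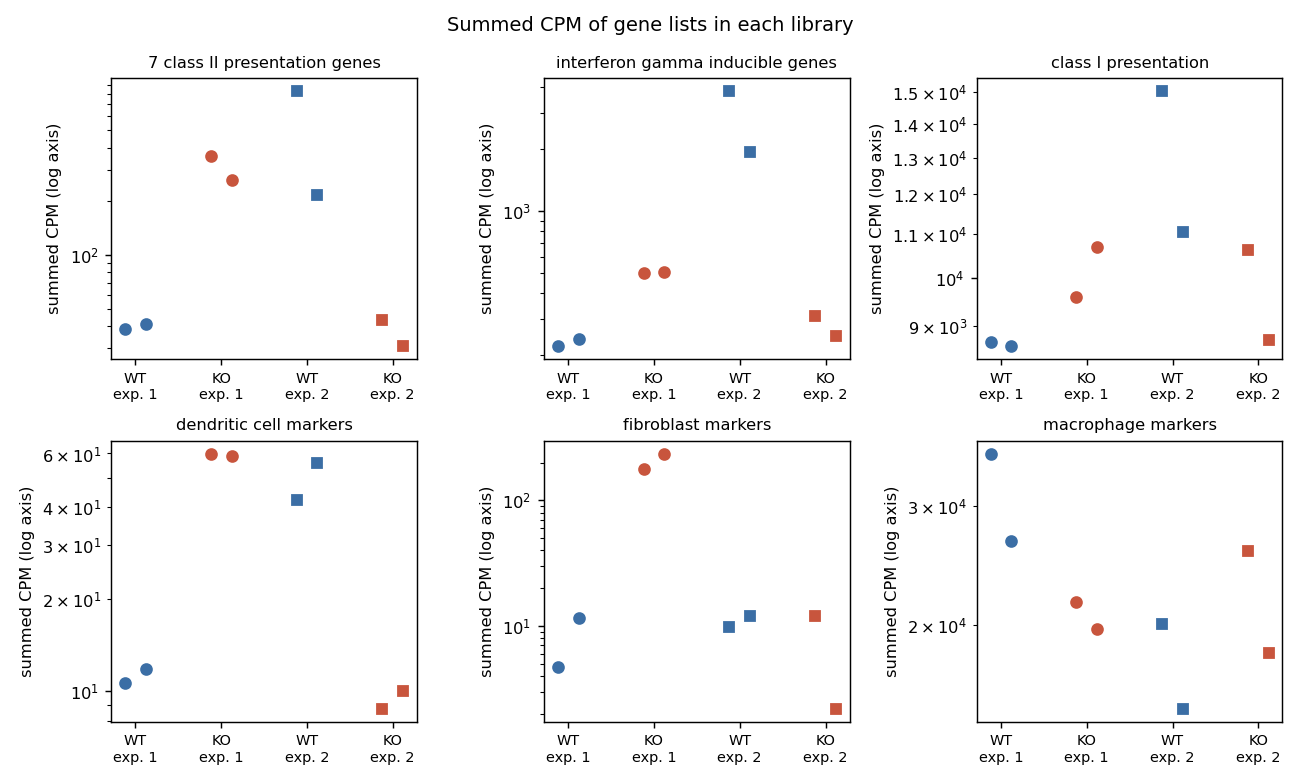
Summed CPM (log axes) of the 7 class II presentation genes, 13 interferon gamma inducible genes, 14 class I presentation genes and the markers of dendritic cells, fibroblasts and macrophages, with a point per library, circles for experiment 1, squares for experiment 2, blue for WT and red for KO. Interferon gamma inducible genes reach 503 and 508 CPM in KO 5 and KO 6 and 3833 and 1942 CPM in WT 3 and WT 4, and fibroblast markers are high in KO 5 and KO 6 alone.

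Class I presentation serves CD8+ T cells. Of its 14 genes, 8 were higher and 1 lower in KO in experiment 1 (27.0% and 28.1% of all genes). In experiment 2, 0 were higher and 6 lower (7.52% and 8.29% of all genes). The median log2 fold changes were 0.30 and -0.72. The 8 became 5 without WT 1, 4 without WT 2 and 5 without KO 6, and the 6 became 1 without WT 3 and 0 without KO 7 or KO 8. H2-K1, a classical class I heavy chain, had 999, 1024, 1117 and 1390 CPM in WT 1, WT 2, KO 5 and KO 6 (0.30, adjusted p = 0.0488) and 2220, 1495, 1385 and 996 CPM in WT 3, WT 4, KO 7 and KO 8 (-0.64, adjusted p = 0.163). H2-D1 was higher in KO in experiment 1 (0.32, adjusted p = 0.0133) and had -0.24 in experiment 2 (adjusted p = 0.502), and B2m, the light chain, passed in neither (0.09 and -0.23).

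Cells of other types can carry class II, and in bulk RNA fewer cells of a type and less RNA per cell cannot be told apart. The 10 dendritic cell markers summed to 10.7 and 11.8 CPM in WT 1 and WT 2, 59.8 and 59.1 CPM in KO 5 and KO 6, 42.2 and 55.9 CPM in WT 3 and WT 4, and 8.73 and 10 CPM in KO 7 and KO 8. Of 5 tested, 3 were higher and 1 lower in KO in experiment 1 and 0 were higher and 2 lower in experiment 2 (1 lower without WT 3, without KO 7 or without KO 8). Most of the sum came from Itgax and Clec10a. Itgax, the CD11c integrin shared by dendritic cells and activated macrophages, had 3.25, 2.29, 19.2 and 29.3 CPM in WT 1, WT 2, KO 5 and KO 6 and 30.9, 46.7, 1.59 and 0.935 CPM in WT 3, WT 4, KO 7 and KO 8. Clec10a, a lectin of macrophages and dendritic cells, had 35.7 and 25.7 CPM in KO 5 and KO 6 and at most 7.70 CPM elsewhere, and did not pass in experiment 2 (-0.65, adjusted p = 0.0745). Mgl2, another lectin of both cell types, named after its values were seen, had 0.0983 and 0.0293 CPM in WT 1 and WT 2, 3.17 and 2.62 CPM in KO 5 and KO 6, 1.84 and 0.834 CPM in WT 3 and WT 4, and 0.244 and 0.0959 CPM in KO 7 and KO 8. It split the libraries as the class II genes did and passed in both experiments (5.36, adjusted p = 2.22e-05, and -2.96, adjusted p = 0.0379). Of markers more particular to dendritic cells, Flt3 stood at no more than 1 read in any library and Zbtb46 at 0.342 to 0.658 CPM, and Batf3 went the other way (log2 fold change -2.21, adjusted p = 0.000392, in experiment 1, and 2.85, adjusted p = 0.0516, in experiment 2). The part of dendritic cells in the class II result was not tested beyond these values.

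B cells express class II constitutively. Of 5 B cell markers 1 was tested, Cd79b, which ran opposite to the class II genes (log2 fold change -1.09, adjusted p = 0.00315, in experiment 1 and 1.51, adjusted p = 0.137, in experiment 2), and the list summed to between 0.978 and 5.61 CPM. T and NK cell markers summed to at most 0.69 CPM, with 1 of 5 tested and 0 called, and neutrophil markers to at most 1.38 CPM, with 1 of 5 tested, S100a8, lower in KO in experiment 1. Of 8 fibroblast markers 7 were tested and 7 were higher in KO in experiment 1, with a median log2 fold change of 4.69, and 0 were called in experiment 2. Col1a2 had 81.7 and 105 CPM in KO 5 and KO 6 and at most 5.37 CPM elsewhere, so that fibroblast transcripts accompanied the class II transcripts in experiment 1 and not in experiment 2, where WT 3 and WT 4 had 9.73 and 11.9 CPM over the list. Whether they bear on the class II levels of KO 5 and KO 6 was not tested.

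Of 8 macrophage markers, 5 were higher and 3 lower in KO in experiment 1 (27.0% and 28.1% of all genes). In experiment 2, 2 were higher and 1 lower (7.52% and 8.29% of all genes). The 2 became 0 without any 1 library of experiment 2, and the 1 became 0 without WT 3, WT 4 or KO 8. Adgre1 (F4/80) ran opposite to the class II genes, with 8328, 7102, 1929 and 1669 CPM in WT 1, WT 2, KO 5 and KO 6 and 2678, 2720, 4874 and 5264 CPM in WT 3, WT 4, KO 7 and KO 8. Csf1r, the receptor of the growth factor that drives macrophage differentiation, ran with them, with 1561, 1232, 2538 and 2440 CPM in experiment 1 and 2448, 2225, 1176 and 751 CPM in experiment 2 in the same order of libraries. The 4 libraries high in class II thus also had less Adgre1 and more Csf1r than the other 4, as groups without overlap. Lyz2, the most abundant marker, did not split them so. It had 23940, 16260, 13170 and 11680 CPM in WT 1, WT 2, KO 5 and KO 6 (-0.71, adjusted p = 0.0272, edgeR). In WT 3, WT 4, KO 7 and KO 8 it had 12380, 7606, 16740 and 10590 CPM (0.45, adjusted p = 0.409).

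Among 9068 other genes whose log2 CPM averaged 3 or more, the 8 whose log2 CPM followed the mean z-score of the class II genes most closely over the 8 libraries were Phf8 (Pearson's r = 0.996), Chd4 (0.986), Cmtr1 (0.986), Arf5 (0.985), Kctd10 (0.983), Vps13d (0.978), Ppp2r4 (0.977) and Sdf4 (0.977). They were picked as the highest of many values, and their amplitude was small beside that of the class II genes. Phf8, a histone demethylase, ranged from 32.0 CPM in KO 8 to 61.7 CPM in WT 3, and Chd4, a chromatin remodeller, from 395 to 488 CPM.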

How the data were processed

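Bulk RNA-seq libraries of BMDMs were prepared with a kit for stranded mRNA. The authors deposited raw counts per gene and, as a signal, these counts over a size factor (0.891 to 1.09) set within each experiment. The submitters' processing notes name STAR 2.7.0f, Subread 1.6.4 with featureCounts, DESeq2 1.22.1 and GRCm38; the annotation and strand setting are not given in the sources used here. Only the deposited counts entered the tests.

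Both tables were joined by symbol. KO was compared with WT by edgeR 4.0.16 in R 4.3.3 (TMM, filterByExpr by genotype over 8 libraries, robust quasi-likelihood F test, Benjamini-Hochberg adjustment over 14418 genes, threshold 0.05) within each experiment, for the product of experiment and genotype, and over both experiments with experiment as a term. SE was taken as the absolute log2 fold change over the root of F. Log2 CPM used a prior count of 2. The labels do not say that libraries came from separate mice, so p-values measure the spread between libraries. Replicate libraries differed by more than counting noise (chi-square per gene 11.0 to 73.1), and no library was a copy of another. The scripts were tested on simulated data.

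The 7 genes and the 12 other lists were chosen with earlier results of these data known. Named were all 7 genes, every tested gene of the other class II and promoter factor lists, the 3 genes of highest mean CPM of each other list, Mkl1 and the 8 most like genes; Irf1, Psmb8, Psmb9, Tap1, Tap2, Flt3, Mgl2, Zbtb46, Cd68, Brd2, Gm20513 and the genes too low to test were named after their values were seen. Alternatives were DESeq2 1.42.0, limma-voom (limma 3.58.1), upper-quartile scaling, 2 other filters, stricter thresholds, all 8 libraries in 1 fit, no experiment term and each library left out. Promoters were taken from RefSeq. Figures used matplotlib 3.10.9.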

Additional observations from a re-analysis of the deposited data

Results flagged for a closer look

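Genotype had a different effect in the experiments for 37 of the 49 genes named by rule. The test was the product term of the edgeR fit over all 8 libraries, and genes named after their values were seen were not counted. Of all 14418 genes tested, 5996 (41.6%) passed. The 37 include every class II presentation gene and all 8 genes picked for resembling them over the libraries. The former were chosen with earlier results known and the latter for that likeness, so the share among named genes cannot be compared with 41.6%. The values below are log2 fold changes of experiment 2 minus those of experiment 1. For the class II presentation genes they were -10.93 (H2-Aa), -7.78 (H2-Ab1), -10.33 (H2-Eb1), -2.63 (H2-DMa), -1.88 (H2-DMb1), -10.06 (Cd74) and -12.51 (Ciita), for other class II genes -2.69 (H2-DMb2) and -4.44 (H2-Ob), and for RFX subunits -1.79 (Rfx5) and -1.03 (Rfxank).

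Among processing, interferon and class I genes they were 0.50 (Ctsd), -1.26 (Ctss), -1.19 (Ifngr1), -3.24 (Irgm1), -8.99 (Cxcl10), -5.53 (Gbp2) and -0.95 (H2-K1). Among cell type markers they were 3.01 (Adgre1), -2.11 (Csf1r), -8.06 (Itgax), -3.64 (Clec10a), 5.06 (Batf3), 2.59 (Cd79b), -4.96 (Col1a2), -6.24 (Col3a1), -7.75 (Pdgfra) and 3.75 (S100a8). Mkl1 itself had -0.79, lower in KO in both experiments and more so in experiment 2.

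Of the genes that most resembled the class II genes over the libraries, Phf8 had -1.42, Chd4 -0.39, Cmtr1 -1.63, Arf5 -0.44, Kctd10 -1.02, Vps13d -0.58, Ppp2r4 -0.89 and Sdf4 -0.66. They were picked for a pattern that turns between the experiments.

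A library far from the rest of its genotype was found for Ctsb in KO, where KO 8 lay apart by 0.841 of the log2 range of the 4 libraries, and for Klrb1c in KO, where KO 8 lay apart by 0.834, at a level near 0. All 49 genes named by rule were searched in both genotypes. Chance flags about 1 in 20 groups where the 4 libraries are drawn alike. Here each genotype joined 2 libraries of each experiment, so that rate is only a rough guide.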

How the results depend on the processing

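No value called in the main comparisons changed direction under any alternative. The 7 class II genes called higher in experiment 1 and different between the experiments were called in every alternative that tested them, except H2-DMb1 in experiment 1 at a change of at least 2-fold. In experiment 2 the number called lower was 3 with no filter beyond 1 count, 3 with limma-voom, 1 at an adjusted p under 0.01, between 1 and 7 with a library left out, and 7 with DESeq2 and with all 8 libraries in 1 fit; at least 10 counts in every library left Ciita untested. The cause of these changes was not tested. Over both experiments 0 of the 7 were called in any setting. Genes called in experiment 1 numbered 2231 at 2-fold. In experiment 2 they numbered 234 at an adjusted p under 0.01, 1274 at 2-fold, 4899 with all 8 libraries in 1 fit and 232 to 1388 with a library left out. For the difference between experiments they numbered 3247 at an adjusted p under 0.01, 3245 at 2-fold and 3935 to 6508 with a library left out, and over both experiments 2492 with DESeq2, 208 at an adjusted p under 0.01, 331 at 2-fold, 4 with no experiment term and 243 to 1100 with a library left out. No paired analysis was possible because WT and KO libraries share no replicate number. With 2 libraries per genotype in each experiment, and at most 12 reads of Ciita in a low library, the size of a fold is less sure than its direction.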
